A study of Mus musculus with 24 samples.

Results

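Skin of mice with alopecia areata (AA), the autoimmune loss of hair, was compared between the end of a course of a JAK1 inhibitor and a time after the drug had been withdrawn. The members are 12 of the 24 skin libraries of the series, taken by the names of the deposited count columns: 6 libraries of the group 8w Off Tx (off treatment) and 6 of the group Systemic JAKi (on drug). All mice were female C3H/HeJ, aged approximately 30 weeks when they were terminated, and AA was induced in the AA mice with a skin graft. On drug libraries are from AA mice that ate about 100 mg/kg of Cmpd A (AZ13748709), an inhibitor selective for the kinase JAK1, once a day for 4 weeks, and were biopsied alive at week 4. Off treatment libraries are from AA mice that had the same 4 weeks of Cmpd A and then 8 weeks without it, sampled at termination in week 12. The other groups, used here only as a reference, are 6 libraries of AA skin and 6 of Healthy skin, both labelled untreated and sampled at week 12, although the names of the AA samples hold the word Vec12w. By the methods of the study the same 6 mice gave the on drug and the off treatment skin, but no label states that a letter (A to F) marks a mouse. Withdrawal of the drug can therefore not be told apart from the later week, the change from a live biopsy to a terminal sample or any difference in the place of sampling, and the p-values measure only the spread between these samples.

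JAK1 is a kinase bound to the receptors of interferons and of many interleukins, where it works with JAK2, JAK3 or TYK2. When a cytokine binds, these kinases phosphorylate STAT proteins, which enter the nucleus and switch on their target genes, and the SOCS proteins made in response switch the receptor off. In AA, cytotoxic CD8+ T cells gather around the hair bulb and release interferon gamma, the follicle presents peptides on MHC class I that it otherwise keeps low, and the hair is shed. A hair follicle cycles between rest (telogen), in which its stem cells lie quiet in the bulge, and growth (anagen), in which matrix cells divide and make the hair shaft and the inner root sheath around it.

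Off treatment libraries held between 3444193 and 5766105 counts in genes and on drug libraries between 5559273 and 11233020, so the on drug values are the more precise. On the first principal component of log2 CPM (counts scaled to the effective library size), which carried 48.4% of the variance over all 24 libraries, on drug libraries lay between 36.1 and 64.4, healthy between 32.7 and 54.2, AA between -84.2 and -43.7 and off treatment between -68.6 and 10.9. Off treatment libraries A (-3.58) and E (10.9) were the nearest to the on drug side, and they also had the lowest normalization factors of their group (0.898 and 0.862) and the highest share of mitochondrial counts (7.005% and 7.57%). On drug library A was the highest of its group in 30 of 39 antiviral genes. Many calls and list counts that turn on these libraries are given with and without them. Markers of skin were abundant in both groups, among them Krt5 (medians of 1718 CPM on drug and 2348 off treatment) and Krt10 (2421 and 1855 CPM). Of the 8 skin markers looked at, 4 were nevertheless lower off treatment and 1 was higher (median -0.45).

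Of 16248 genes tested, 3144 (19.4%) were higher off treatment than on drug and 2697 (16.6%) were lower, at an adjusted p below 0.05 in the quasi-likelihood test of edgeR. At the thresholds of the study, an adjusted p below 0.001 and a change of more than 4-fold, 321 genes (1.98%) rose and 87 (0.535%) fell. All 6 off treatment libraries lay above all 6 on drug libraries in 8.77% of the genes and below them in 9.19%. Without off treatment libraries A and E, 408 genes rose and 64 fell at the thresholds of the study. Of the 321 rises, 203 had both A and E below the other 4 off treatment libraries and 185 overlapped with the on drug libraries. Of the 87 falls 21 had A and E at the bottom and 3 overlapped (Gm17552, Il31ra and Scgb1a1, named for this count). Over all 16248 genes tested, 3044 had A and E at the bottom and 13329 overlapped. In the deposited TPM (counts scaled to transcript length and library size), taken as they stand, the split was 232 genes higher and 13910 lower, with the median of all genes at -1.16 on the log2 scale. There, 3 small RNAs of 57 bases (Gm23935, Gm24270 and Gm24245) made up 22.8 to 60.4% of the TPM off treatment and 6.93 to 14.9% on drug. With each library set to its own median, 52.4% of the calls were higher off treatment with a pseudocount of 0.1, 59.0% with a pseudocount of 1 and 73.8% without a filter, against 53.8% with the counts.

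**Figure D1:**
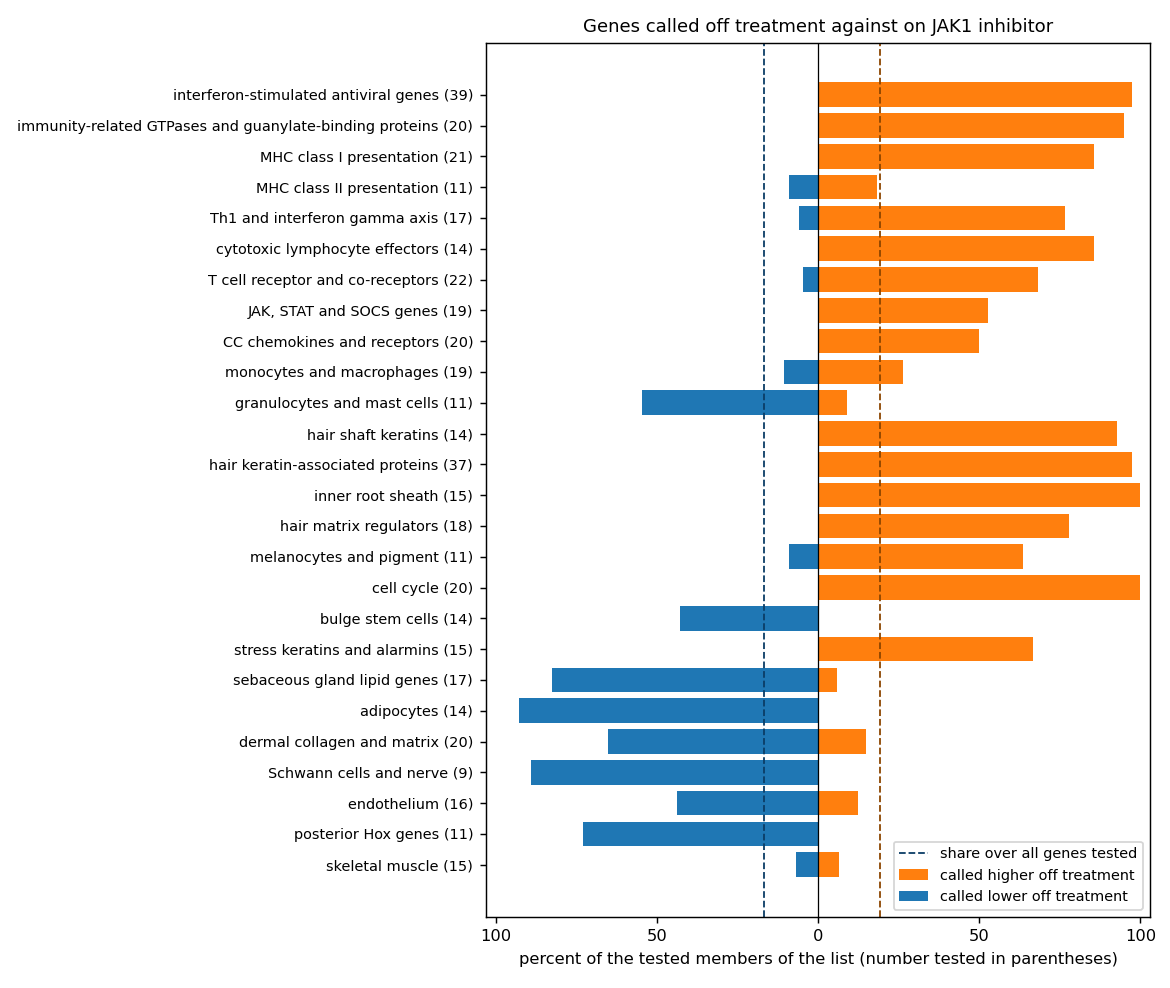
Share of the tested genes of 26 gene lists that were called higher (right, orange) or lower (left, blue) off treatment than on drug at an adjusted p below 0.05, in percent of the tested members, whose number stands in parentheses. Dashed lines mark the shares over all 16248 genes, 19.4% higher and 16.6% lower, and the lists of interferon genes, hair genes and cell cycle genes reach far past the first while adipocyte, sebaceous and nerve genes reach far past the second.

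Interferon-stimulated genes rose in nearly all members. Of 39 antiviral genes tested, 38 were higher off treatment, with a median log2 fold change of 2.37 against -0.0014 over all genes, and in 36 of the 39 the 6 off treatment libraries all lay above the 6 on drug ones. The one that was not called was Isg20, at 0.30, looked up after the values were seen. Of 20 immunity-related GTPases and guanylate-binding proteins, which disrupt vacuoles that hold pathogens and are driven mostly by interferon gamma, 19 rose, with a median of 2.76. The exception was Gbp11 (0.30, also looked up afterwards). Only 7 of the 20 were free of overlap, and in 10 of them off treatment libraries A and E both lay below the other 4. The medians of the 2 lists were 2.63 and 2.98 without off treatment libraries A and E. The mean log2 CPM of the antiviral list lay between 2.62 and 3.40 on drug, between 4.37 and 6.05 off treatment, between 4.77 and 6.04 in AA and between 3.02 and 3.52 in healthy skin.

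Ifi44 (ENSMUSG00000028037, chromosome 3, 151730922 to 151749960, minus strand, GRCm38), an interferon-induced protein of the cytoplasm, had the largest rise of the antiviral list. It lay at 0.713, 1.45 and 2.84 CPM on drug (lowest, median and highest of 6) and at 22.3, 70.0 and 127 CPM off treatment, a log2 fold change of 5.58 ± 0.51 (SE, adjusted p = 8.8e-08). The lowest off treatment library, E, was above the highest on drug library, A, and also above the healthy ones. Isg15 (ENSMUSG00000035692, chromosome 4, 156199424 to 156200818, minus strand), a ubiquitin-like protein that is attached to other proteins during antiviral defence, lay at 0.184, 0.913 and 1.497 CPM on drug and at 10.6, 38.4 and 70.8 CPM off treatment, a rise of 5.26 ± 0.54 on the log2 scale (adjusted p = 1.9e-07). Ifit1 (ENSMUSG00000034459, chromosome 19, 34640871 to 34650009, plus strand), which binds foreign RNA, lay at 1.16, 2.27 and 4.94 CPM on drug and at 19.2, 59.5 and 102 CPM off treatment, a rise of 4.54 ± 0.45 (adjusted p = 3.2e-07). In neither gene did the groups overlap.

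Oas2, which makes the messenger that activates RNase L, rose 19.5-fold (adjusted p = 8.8e-08) and Mx1, a dynamin-like GTPase against influenza virus, rose 16.8-fold (adjusted p = 1.9e-07). The abundant Parp14 rose 3.70-fold, from a median of 83.8 to 327 CPM. Apol9b and Apol9a, interferon-induced apolipoproteins, rose 57.6-fold and 29.003-fold, though their sequences are nearly alike and the counts may be split between them. Among the GTPases, Irgm1, which controls the other members of its family, lay at 18.8, 24.4 and 58.7 CPM on drug and at 79.6, 247 and 323 CPM off treatment, a 7.54-fold rise (adjusted p = 6.0e-07). Iigp1 lay at 20.7, 32.8 and 164 CPM on drug and at 170, 633 and 726 CPM off treatment, a 10.1-fold rise (adjusted p = 1.2e-05), in which on drug library A and off treatment library E nearly met. Gm4841 and F830016B08Rik, its close relatives, rose 42.9-fold and 9.82-fold, with the same doubt over shared reads.

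The DNA before the start of these genes was searched for letters that the interferon pathway is known to read. The ISGF3 complex, which carries the signal of type I interferon, binds the interferon-stimulated response element, here searched for as its core GAAANNGAA on both strands, and the gamma-activated site of interferon gamma signalling was searched for as TTCNNNGAA. Windows ran from 250 bases before to 50 bases after each start in RefSeq annotation of GRCm38.p6. At least 1 window was found for 11540 of the 16248 genes, and a gene was counted where any of its windows held a match. Genes with more annotated starts therefore had more chances to be counted. The response element core stood in 8.99% of all these genes, in 10.6% of those called higher off treatment and in 8.52% of those called lower. It stood in 23.7% (55 of 232) of those past the thresholds of the study in the upward direction and in 13.8% (9 of 65) in the downward direction. It stood in 17 of 28 genes (60.7%) of the antiviral list and in 11 of 12 (91.7%) of the GTPase list. In the other lists searched it stood in 1 of 9 (11.1%) hair shaft keratins, 4 of 33 (12.1%) keratin-associated proteins and 2 of 11 (18.2%) sebaceous genes. The gamma-activated letters stood in 8.34% of all these genes, in 21.4% of the antiviral list and in 58.3% (7 of 12) of the GTPase list. Their shares were 11.1% for hair shaft keratins, 18.2% (6 of 33) for keratin-associated proteins and 9.09% for sebaceous genes. A match is a string of letters and not a shown binding site. The 150 bases before the start are printed for 4 genes, with the matched letters of either strand in capitals. These had the smallest adjusted p among the genes of both lists that hold a core match there. Windows on the chromosome that holds Iigp1 were left out of the choice. Oas3 and Oas1a are named by this choice, made after the values were seen.
Oas3, chr5:120777660-120777809, minus strand: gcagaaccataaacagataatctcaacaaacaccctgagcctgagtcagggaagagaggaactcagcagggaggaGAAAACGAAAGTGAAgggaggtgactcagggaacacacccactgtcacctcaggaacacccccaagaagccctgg
Oas1a, chr5:120907526-120907675, minus strand: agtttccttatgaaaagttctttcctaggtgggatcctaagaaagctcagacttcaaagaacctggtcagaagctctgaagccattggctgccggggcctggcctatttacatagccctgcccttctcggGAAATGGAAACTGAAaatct
Isg15, chr4:156200819-156200968, minus strand: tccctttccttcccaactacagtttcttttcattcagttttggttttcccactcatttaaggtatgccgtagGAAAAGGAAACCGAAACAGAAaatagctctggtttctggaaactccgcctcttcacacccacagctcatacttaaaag
Ifit1, chr19:34640739-34640888, plus strand: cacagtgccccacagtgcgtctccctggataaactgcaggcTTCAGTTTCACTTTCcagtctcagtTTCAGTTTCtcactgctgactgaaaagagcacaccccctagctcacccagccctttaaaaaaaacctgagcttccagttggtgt
Oas3 and Oas1a hold 2 overlapping matches each and Isg15 holds 3. Ifit1 also holds 3, on the opposite strand, of which the last stands apart from the others. Beside these letters stand rises of 4.47 on the log2 scale for Oas3, 3.57 for Oas1a, 5.26 for Isg15 and 4.54 for Ifit1.

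The interferon gamma axis rose in most of its members: of 17 genes tested, 13 were higher off treatment and 1 was lower, with a median of 1.66. Ifng, the cytokine itself, was scarce, at 0, 0.277 and 1.65 CPM on drug and at 0.360, 1.74 and 5.21 CPM off treatment, a rise of 2.17 ± 0.76 (adjusted p = 0.021) with overlapping groups, which was not called without off treatment library B (1.68, adjusted p = 0.091). Its receptor chain Ifngr1 was the gene that fell, from a median of 132 to 74.1 CPM (by 0.75 ± 0.10, adjusted p = 1.3e-05), with no overlap. Tbx21, the transcription factor that commits T cells to the Th1 fate, rose 5.08-fold (adjusted p = 0.0017). The chemokines that draw CXCR3-bearing T cells to interferon-exposed tissue rose together: Cxcl9 lay at 2.85, 10.8 and 39.8 CPM on drug and at 18.1, 106 and 392 CPM off treatment, a 10.5-fold rise (adjusted p = 0.00014). Cxcl10 rose 7.92-fold and Cxcl11 9.63-fold, and in all 3 the lowest off treatment library, E, lay within the on drug range, whose highest library was A. Cxcr3, their receptor, was not called (0.73, looked up after the values were seen, as were Il12rb2 at -0.06 and Il18 at -0.35). Without off treatment libraries A and E Il18 was called lower (-0.89, adjusted p = 0.0031). Irf1, an interferon-induced transcription factor, rose 3.16-fold (adjusted p = 0.00017).

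**Figure D2:**
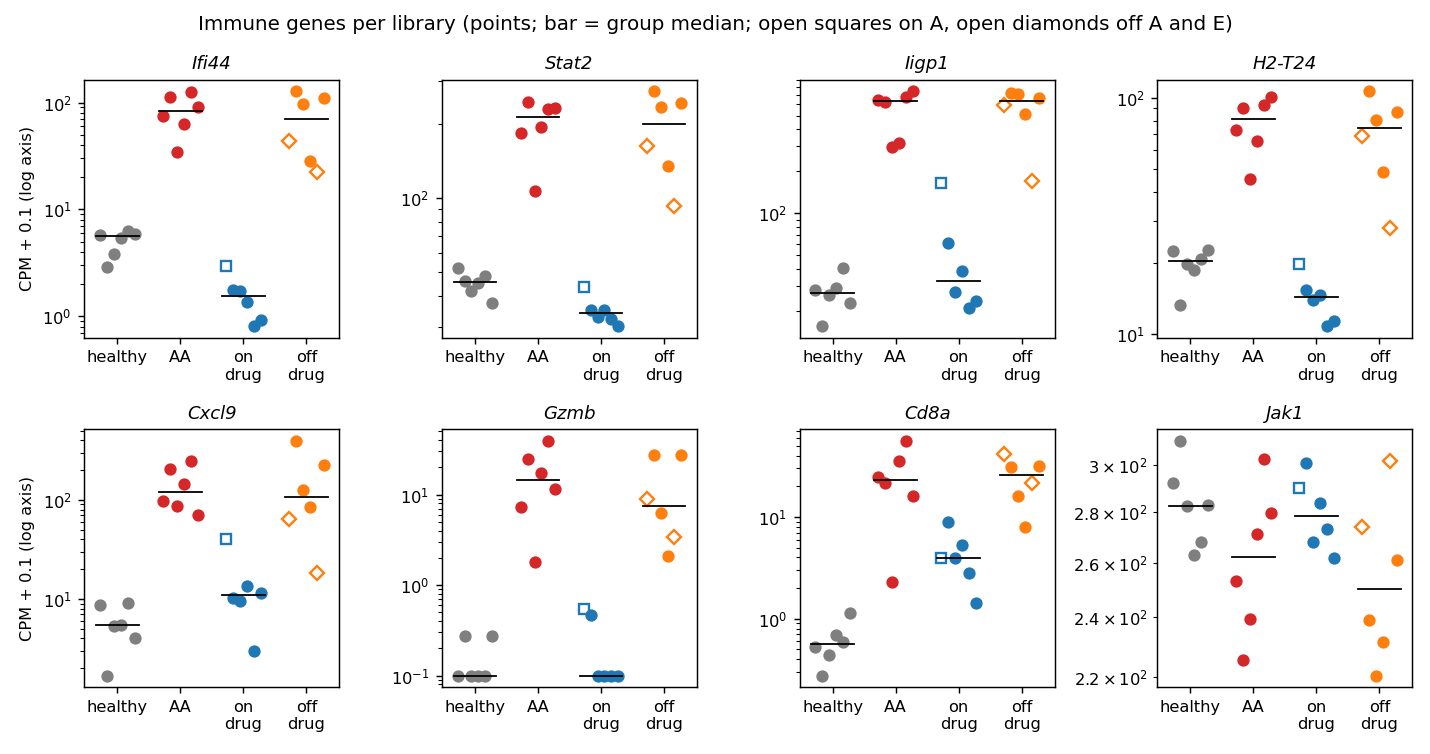
CPM plus 0.1, on log axes that differ between panels, of 8 immune genes in each library of healthy, AA, on drug and off treatment skin (6 points each, bars at the group medians). Open squares mark on drug library A, open diamonds off treatment libraries A and E. Ifi44, Stat2, Iigp1, H2-T24 and Gzmb show no overlap between on drug and off treatment, Cxcl9 and Cd8a a small one, and the Jak1 points of the groups lie over one another.

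Transcripts of the JAK and STAT proteins themselves moved unevenly, with 10 of 19 genes of the pathway higher off treatment, none lower and a median of 0.26. Jak1, the target of the drug, lay at 262, 278 and 301 CPM on drug and at 220, 250 and 302 CPM off treatment and was not called (-0.13 ± 0.08, adjusted p = 0.18), although without off treatment libraries A and E its difference of -0.23 passed (adjusted p = 0.029). Jak2 was not called (0.22 ± 0.14, adjusted p = 0.23), Tyk2 rose by 0.26 ± 0.08 (adjusted p = 0.017) and Jak3, which pairs with JAK1 under the receptors of interleukins that feed lymphocytes, rose 2.01-fold (adjusted p = 0.00040). Stat2, which carries the signal of type I interferon, rose from 30.1, 33.9 and 43.3 CPM to 92.7, 199 and 272 CPM, 5.47-fold (adjusted p = 1.1e-07). Stat3, the main relay of interleukin 6, rose 1.57-fold and Stat4, that of interleukin 12, 3.41-fold (adjusted p = 2.3e-05 and 0.0071). Stat5a, Stat5b and Stat6 were not called (-0.08, -0.24 and 0.12, with adjusted p = 0.62, 0.074 and 0.15), and Stat5b passed at -0.34 without A and E. Of the feedback inhibitors, Socs1 rose 2.35-fold, Socs3 1.89-fold and Socs5 1.401-fold. Cish rose 1.44-fold (adjusted p = 0.048), a call lost without off treatment A and E (adjusted p = 0.081). Other settings that lost it included upper quartile scaling (adjusted p = 0.057), no filter on low counts (0.072) and the replicate letter as a block (0.067). It was also lost without AA library A (0.051) or B (0.052).

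Genes of MHC class I presentation rose by smaller steps. Of 21 tested, 18 were higher off treatment and none lower, with a median of 0.87, and 8 of the 21 were free of overlap. On drug library A was the highest of its group in all 21. Nlrc5, the transcriptional activator of the class I genes, lay at 256, 266 and 321 CPM on drug and at 435, 636 and 784 CPM off treatment, a 2.27-fold rise (adjusted p = 6.0e-06). H2-T24, a nonclassical class I gene, lay at 10.7, 14.2 and 19.6 CPM on drug and at 28.1, 74.4 and 106 CPM off treatment, a 4.91-fold rise (adjusted p = 1.1e-06). H2-T10, H2-T22 and H2-K2 rose 2.04-fold, 1.83-fold and 1.82-fold, and the classical H2-K1 rose 1.42-fold (adjusted p = 0.0044), with the caution that class I genes share much sequence. The 3 that were not called were B2m, the light chain of all class I molecules (0.20 ± 0.13, adjusted p = 0.26), and, looked up afterwards, H2-D1 (0.30) and H2-M3 (0.39). B2m (adjusted p = 0.045) and H2-D1 (adjusted p = 0.0028) were called higher without on drug library A, and H2-D1 (adjusted p = 0.031) and H2-M3 (adjusted p = 0.032) without off treatment A and E. Of 11 class II genes 2 were higher and 1 lower (median 0.38), shares at or below those of all genes. Its activator Ciita rose 2.11-fold (adjusted p = 0.0016), the most abundant members Cd74 (0.54, adjusted p = 0.11) and H2-Aa (0.16, adjusted p = 0.69) were not called, and Ctss (1.49) and H2-Oa (-0.94) complete the calls, named for these counts. Without off treatment libraries A and E, 6 of the 11 were higher and none lower, without on drug library A 4 were higher and none lower, and Cd74 was called in both cases (adjusted p = 0.021). H2-Oa was called in neither.

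Transcripts of cytotoxic T cells were higher off treatment, and the granzymes Gzma and Gzmb were near 0 on drug. In whole skin, fewer cells of a type and less RNA per cell cannot be told apart. Gzmb (ENSMUSG00000015437, chromosome 14, 56258838 to 56262260, minus strand), the granzyme that starts apoptosis in target cells, lay at 0, 0 and 0.449 CPM on drug and at 1.98, 7.45 and 27.2 CPM off treatment, a rise of 6.50 ± 1.55 on the log2 scale (adjusted p = 2.7e-05) from 5 reads in all 6 on drug libraries to 375. Gzma (ENSMUSG00000023132, chromosome 13, 113093825 to 113100981, minus strand) lay at 0, 0 and 0.599 CPM on drug and at 3.06, 11.6 and 29.8 CPM off treatment, a rise of 6.39 ± 1.29 (adjusted p = 9.4e-06) from 6 reads to 390. The groups did not overlap in either gene. Cd8a, a chain of the co-receptor of cytotoxic T cells, lay at 1.32, 3.86 and 8.83 CPM on drug and at 7.92, 25.9985 and 41.8 CPM off treatment, a 5.75-fold rise (adjusted p = 0.00039) in which off treatment library D lay just below on drug library B. Of 14 cytotoxic effector genes 12 rose, with a median of 1.68, and Gzmm (-0.12) and Cst7 (0.62), named for this count, did not pass. Il2rb, a receptor chain for interleukins 2 and 15, rose 4.82-fold, the perforin gene Prf1 2.29-fold and the cathepsin Ctsw 2.59-fold.

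Of 22 genes of the T cell receptor and its co-receptors, 15 rose and 1 fell, with a median of 0.96. Lck and Zap70, the kinases that relay the receptor's signal, rose 3.79-fold and 3.18-fold (adjusted p = 7.8e-05 and 0.00011). Cd3e, a chain of the receptor shared by all T cells and named after its value was seen, lay at 4.04, 4.83 and 6.81 CPM on drug and at 7.02, 8.98 and 16.2 CPM off treatment, a 1.91-fold rise without overlap. The member that fell was Cd4, the co-receptor of helper T cells, also named afterwards: it lay at 2.00, 2.78 and 11.1 CPM on drug, the highest being library A, and at 0.663, 1.24 and 2.61 CPM off treatment (by 1.41 ± 0.44, adjusted p = 0.013). That call was lost without off treatment libraries A and E (adjusted p = 0.060), when 11 genes of the list rose, and without on drug library A (-0.82, adjusted p = 0.067). Itgae, the integrin that holds T cells in epithelium, rose 3.07-fold, while S1pr1, the receptor by which T cells leave tissue, also made by endothelium, fell by 1.56 ± 0.23 on the log2 scale (adjusted p = 2.7e-05), both without overlap. Among checkpoint and regulatory genes 5 of 12 rose, among them Cd274, the ligand of PD-1 (3.06-fold, adjusted p = 0.00038), Tnfrsf9 (8.33-fold) and Icos (1.65-fold, adjusted p = 0.042), whose call was lost without any one of on drug C, E or F or off treatment B, C, D, E or F (highest adjusted p = 0.10) and with no filter on low counts. The other rises of this list, named for the count, were Pdcd1 (2.15), Il2ra (1.86) and Pdcd1lg2 (3.10).

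The ALADIN scores average z-scores against healthy skin over 5 interferon genes (IFN score) and 4 cytotoxic genes (CTL score). The study computed them from TaqMan data, whereas the values here are from the log2 CPM of the RNA libraries. The IFN score was -0.07 ± 1.32 (SD, n = 6) on drug, 7.05 ± 2.24 off treatment and 7.74 ± 1.32 in AA. The CTL score was 0.71 ± 1.26, 6.56 ± 1.84 and 7.42 ± 2.47. For both scores the lowest off treatment library (3.46 for IFN and 4.15 for CTL) lay above the highest on drug library (2.38 and 2.40). The genes of the scores were picked by the study for this disease, and the values are given without a test.

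Other leukocytes did not move as one group. Of 20 CC chemokines and receptors 10 rose and none fell, among them Ccr1 (8.33-fold, adjusted p = 0.00047) and the monocyte chemoattractants Ccl7 (4.63-fold) and Ccl8 (3.45-fold, adjusted p = 0.027), the last at 54.5 CPM in on drug library A and at most 7.91 CPM in the other 5. The call of Ccl8 was lost without any one of on drug B to F or off treatment B or F (highest adjusted p = 0.080). The monocyte receptor Ccr2 rose 3.90-fold. Of 19 monocyte and macrophage genes 5 rose and 2 fell, where 19.4% of all genes rose and 16.6% fell. On drug library A was the highest of its group in 17 of the 19, and without it 8 rose and 2 fell. Without off treatment A and E 6 rose and none fell. Among these genes the Fc receptor Fcgr1 rose 4.29-fold and Aif1 2.79-fold, whereas the abundant Lyz2 (-0.32, adjusted p = 0.54) and Mrc1 (-0.43, adjusted p = 0.42) were not called. The remaining calls, named for these counts, were Fcgr4 (2.47), Ly6c2 (1.53) and Msr1 (1.62) upward and Cd163 (-0.77) and Mertk (-0.51) downward, both falls being lost without off treatment A and E (adjusted p = 0.058 and 0.21). Mast cell genes were lower off treatment: Cpa3, a protease of their granules, lay at 18.5, 28.8 and 55.5 CPM on drug and at 4.42, 5.74 and 7.74 CPM off treatment (a fall by 2.44 ± 0.37, adjusted p = 3.9e-05), and Ms4a2, a chain of the IgE receptor, fell by 2.68 ± 0.53, both without overlap. In their list, with granulocytes, 6 of 11 genes fell and 1, Cxcr2 (1.63), rose, a call lost without off treatment A and E (adjusted p = 0.056). Of 5 genes of B and plasma cells 4 fell, among them the antibody light chain Igkc (by 2.21 ± 0.68, adjusted p = 0.015), but 1 of the 5 was called without on drug library A and 1 without off treatment A and E. The others that fell were Jchain (-2.04), Igha (-1.73) and Xbp1 (-0.31).

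Genes of the growing hair follicle rose by large factors, but not in every off treatment library. These transcripts do not count follicles. By the paper's histology, the number of anagen follicles was not affected by 4 weeks of the drug, in other mice. The paper states that it was back to normal off treatment. The paper's follicle counts there varied widely between mice, with a mean above that of healthy mice and below that of AA mice. A figure legend describes induction of anagen in this group. By the paper's hair scores, hair was nearly complete at the end of dosing. The scores were lower in every mouse at the end of the time off treatment, so higher hair transcripts here do not mean more hair. How these counts and scores relate to the transcripts was not tested. Of 14 hair shaft keratins 13 were higher off treatment (median 5.18), of 37 keratin-associated proteins, which cross-link those keratins, 36 were higher (median 4.53), and of 15 inner root sheath genes all 15 were higher (median 4.59). None of the 14 and none of the 37 was free of overlap with the on drug libraries, since off treatment libraries A and E lay below the other 4 in 13 of the 14 keratins and in all 37 associated proteins, as in 14 of the 15 sheath genes. The other 4 off treatment libraries lay above all on drug ones in 13, 36 and 15 genes of these lists. The mean log2 CPM of the shaft keratins lay between -0.55 and 2.86 on drug, between -0.48 and 7.06 off treatment, between 5.48 and 7.49 in AA and between -0.86 and 2.92 in healthy skin. The members not called were Krt84 (0.66) and Krtap3-2 (0.65), named for these counts, and Krtap3-2 was called without A and E (0.95, adjusted p = 0.018).

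Krt35 (ENSMUSG00000048013, chromosome 11, 100092193 to 100096241, minus strand), an early keratin of the hair shaft, lay at 0.570, 3.17 and 4.32 CPM on drug and at 3.24, 169 and 246 CPM off treatment, a rise of 5.70 ± 0.89 on the log2 scale (adjusted p = 5.9e-05) and of 6.27 without A and E. Krt83 rose by 5.71 ± 0.96 and Krt33a, the most abundant of the shaft keratins in counts, by 5.26 ± 0.98, although their lowest off treatment libraries were at 0.442 and 0.221 CPM. Krt82, a cuticle keratin, spanned 0 to 83.8 CPM off treatment and 0 to 1.497 CPM on drug (5.79 ± 1.07, adjusted p = 5.7e-05). Krt32, the hair keratin the study names, lay at 3.68, 4.02 and 4.97 CPM on drug and at 0.885, 62.3 and 85.8 CPM off treatment, a 12.2-fold rise (adjusted p = 0.00011). In the inner root sheath Tchh, which hardens with the sheath, lay at 15.4, 119 and 237 CPM on drug and at 17.5, 3655 and 7215 CPM off treatment (4.97 ± 0.91, adjusted p = 0.00094). The sheath keratin Krt71 rose by 4.86 ± 1.04 and Krt74 by 4.91 ± 0.81, and Tgm3, a cross-linking transglutaminase, rose by 1.89 ± 0.31 with no overlap.

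Regulators of the hair matrix showed less of this split, though off treatment libraries A and E still lay below the other 4 in 12 of 18. Of 18, 14 were higher off treatment (median 1.15), and 8 were free of overlap. Shh (ENSMUSG00000002633, chromosome 5, 28456815 to 28467256, minus strand), the signal that matrix cells send at the onset of growth, was represented by 1 read in all 6 on drug libraries and by 149 reads off treatment, a depth-adjusted ratio of 221 with a 95% counting interval of 39.1 to 8789. Foxn1, the transcription factor mutated in nude mice, lay at 6.42, 8.78 and 11.9 CPM on drug and at 17.5, 35.1 and 44.2 CPM off treatment, a 3.65-fold rise (adjusted p = 9.4e-06). Cux1 rose 2.24-fold (adjusted p = 0.00014), and Bmp2 (-0.19), Bmp4, Edar (0.36) and Eda (-0.48), named for this count, were not called. All 20 genes of the cell cycle list were higher off treatment, with a median of 1.13, and 16 of them did not overlap. Mki67, present only in dividing cells, lay at 121, 156 and 192 CPM on drug and at 256, 361 and 500 CPM off treatment, a 2.36-fold rise (adjusted p = 2.3e-05), and Bub1b, of the spindle checkpoint, rose 2.83-fold (adjusted p = 3.3e-06).

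Of 11 melanocyte and pigment genes 7 rose and 1 fell. Oca2, a transporter of the pigment granule, had no read in 6 on drug libraries and 105 reads off treatment, at least 51.9-fold higher against a floor of 3 reads over the group, but its lowest off treatment library was also at 0. The gene that fell was Mitf, the master regulator of melanocytes that many other cells also make (by 0.73 ± 0.19, adjusted p = 0.0038). Off treatment A and E were below the other 4 in 10 of the 11. Genes of the bulge moved the other way, with 6 of 14 lower and none higher (median -0.41). Krt15 lay at 1258, 1389 and 1609 CPM on drug and at 331, 382 and 775 CPM off treatment, a fall by 1.66 ± 0.29 (adjusted p = 0.00015), and Nfatc1, which keeps bulge stem cells quiet, fell by 0.77 ± 0.13 (adjusted p = 9.7e-05), both without overlap. Among 13 dermal papilla genes 1 rose and 3 fell, Wif1 (1.204), Fgf7 (-0.78), Fgf10 (-1.15) and Crabp1 (-1.59), named for these counts. The shares over all genes were 19.4% and 16.6%. Fgf10 was not called without off treatment A and E (adjusted p = 0.050).

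**Figure D3:**
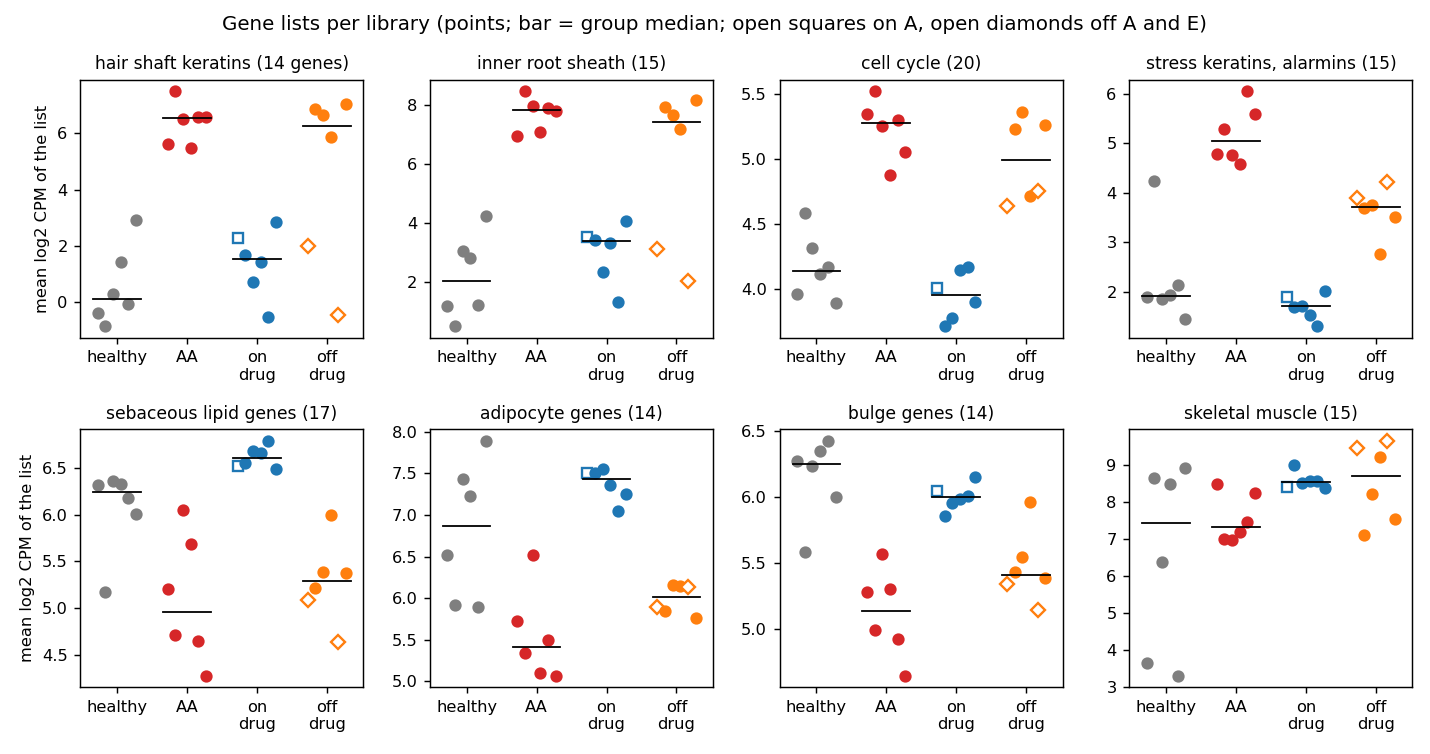
Mean log2 CPM of the tested members of 8 gene lists in each library of healthy, AA, on drug and off treatment skin (6 points each, bars at the group medians, y axes that differ between panels and do not start at 0). Open squares mark on drug library A, open diamonds off treatment libraries A and E, which lie with the on drug points for hair shaft keratins and the inner root sheath but with the other off treatment points for cell cycle, stress keratins, sebaceous and adipocyte genes.

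In the epidermis, keratins and alarmins made under stress were higher off treatment in 10 of 15 genes and lower in none (median 2.62), and off treatment libraries A and E lay above the other 4 in 9 of the 15. Krt6b (ENSMUSG00000023041, chromosome 15, 101676023 to 101680287, minus strand), a keratin of wounded and fast-growing epidermis, lay at 0.270, 0.582 and 0.993 CPM on drug and at 6.66, 34.6 and 130 CPM off treatment, a rise of 6.35 ± 1.47 (adjusted p = 0.00017). Krt6a rose 2.96-fold and Krt17 2.31-fold, all 3 without overlap, and Krt6a and Krt6b share sequence. BC100530, a stefin A-type inhibitor of cysteine proteases, lay at 0, 0.345 and 0.818 CPM on drug and at 5.94, 27.98 and 111 CPM off treatment, the largest rise by the rule of naming (6.72 ± 1.63, adjusted p = 8.5e-05). Its relative Stfa3 rose 10.3-fold, and reads of this cluster may be shared. Gsdmc, a pore-forming gasdermin, rose 23.7-fold, 2610528A11Rik 31.2-fold and Mmp13, a collagenase, 52.2-fold (adjusted p = 0.00024, 0.00043 and 3.1e-05). Of 17 genes of the cornified envelope 6 rose and 2 fell (median 0.31), but off treatment libraries A and E lay above the other 4 in 11 of them, and without A and E 4 rose and 4 fell (median -0.17). Cnfn rose 4.39-fold (adjusted p = 2.0e-05) and Casp14 2.51-fold (adjusted p = 0.00067), whereas Flg2 fell by 0.66 ± 0.22 (adjusted p = 0.021) and Lce1m, named for this count, by 0.88. Krt14 of the basal layer rose 1.59-fold (adjusted p = 0.011), which was lost without A and E (adjusted p = 0.078), and Krt5 (0.41) and Krt10 (-0.07) were not called.

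Lipid genes of the sebaceous gland and of fat were lower off treatment. Of 17 sebaceous genes 14 fell and 1, Fads2 (1.92, named for this count), rose, with a median of -1.31, and 12 were free of overlap. Scd3, a fatty acid desaturase of the gland, lay at 144, 202 and 277 CPM on drug and at 3.98, 11.1 and 67.5 CPM off treatment, a fall by 3.36 ± 0.56 on the log2 scale (adjusted p = 0.00016), with library D the highest off treatment. Scd1 fell by 0.96 ± 0.35 (adjusted p = 0.034, and 0.058 without A and E) and the elongase Elovl5 by 1.24 ± 0.19. Of 14 adipocyte genes 13 fell and none rose (median -1.37), with Slc2a4 (-0.16, named for this count) the exception. Lep, which encodes leptin, lay at 34.8, 54.4 and 105 CPM on drug and at 2.92, 6.34 and 12.97 CPM off treatment, a fall by 3.02 ± 0.50 (adjusted p = 0.00011). Pparg, the master regulator of fat cells, fell by 1.76 ± 0.30, and Plin4, a coat protein of lipid droplets, lay at 435, 547 and 572 CPM on drug and at 130, 144 and 197 CPM off treatment (a fall by 1.80 ± 0.26, adjusted p = 2.6e-05). No library of one group reached the other in these 3 genes. Of 20 genes of cholesterol synthesis 5 fell and none rose (median -0.23), where 16.6% of all genes fell and 19.4% rose. Among those that fell were Msmo1 (-0.88), Hmgcs1 (-0.62), Pmvk (-0.31) and Lss (-0.29). The count was 8 without on drug library A and 3 without off treatment A and E, when Lss was not called (-0.15, adjusted p = 0.27). The mean log2 CPM of the adipocyte list lay between 7.05 and 7.55 on drug, between 5.76 and 6.16 off treatment, between 5.07 and 6.52 in AA and between 5.89 and 7.88 in healthy skin.

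Among the 12 largest falls by the rule of naming were Serpinb6e (17.997-fold higher on drug, adjusted p = 1.4e-05), Serpina3j (10.4-fold) and Serpina3b (9.24-fold), serine protease inhibitors of clusters with shared sequence. Hamp2, of the hepcidin family, was 15.97-fold higher on drug, Npr3, a clearance receptor of natriuretic peptides, 7.80-fold and Acvr1c, an activin receptor of fat cells, 7.23-fold. Mmrn1, a marker of lymphatic endothelium, lay at 22.5, 26.1 and 33.7 CPM on drug and at 2.27, 3.22 and 5.22 CPM off treatment (7.51-fold, adjusted p = 3.5e-07). Cyp2j12 was 7.94-fold, Wfdc3 7.53-fold and Pdzrn4 7.34-fold higher on drug. Off treatment library D was the highest of its group in 11 of 17 sebaceous genes and in 8 of 14 bulge genes, and without it 130 genes rather than 87 fell at the thresholds of the study.

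Many genes of connective tissue and nerve were lower off treatment, and those of vessels were divided. Of 20 collagen and matrix genes 13 fell and 3 rose (median -0.78), a count of falls of 9 without on drug library A and of 7 without off treatment A and E. Dcn, a small proteoglycan on collagen fibrils, lay at 447, 594 and 881 CPM on drug and at 115, 148 and 192 CPM off treatment, a fall by 2.04 ± 0.27 (adjusted p = 1.3e-05). Col1a2 and Col3a1 each fell by 1.18, and Col1a1 fell by 0.83 ± 0.26, a call lost without A and E (adjusted p = 0.082). The members that rose were Tnc, a matrix protein of remodelling tissue (5.44-fold, adjusted p = 3.1e-05), and, named for the count, Timp1 (3.07) and Fn1 (0.84), the last not called without any one of on drug B, E or F or off treatment B, C or F (highest adjusted p = 0.11). Of 9 Schwann cell genes 8 fell and none rose, with Cdh19 (by 1.67 ± 0.20, adjusted p = 3.0e-06) and the myelin gene Pmp22 (by 1.28 ± 0.18) free of overlap. Of 16 endothelial genes 7 fell and 2 rose: Kdr, the main receptor of VEGF, fell by 1.44 ± 0.24 (adjusted p = 0.00011), whereas its decoy Flt1 rose 3.02-fold (adjusted p = 0.00018), as did Icam1 (0.88 on the log2 scale, named for this count).

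Genes that mark position along the body, or tissues other than skin, were looked at as well. Of 11 posterior Hox genes, which keep the address of a cell along the body axis, 8 were lower off treatment and none higher, and their mean log2 CPM lay between 2.57 and 2.83 on drug, between 1.27 and 1.69 off treatment, between 1.17 and 1.498 in AA and between 1.03 and 1.78 in healthy skin. Hoxc10 was represented by 122 reads on drug and 3 off treatment, a depth-adjusted ratio of 27.4 (95% counting interval 9.16 to 135). Hoxa7 fell by 0.92 ± 0.21, and Hoxa9 (by 2.68 ± 0.44) and Hoxa10 (by 2.26 ± 0.48), named after their values were seen, had no overlap either. The skeletal muscle list, of the tissue under the skin, had medians of mean log2 CPM of 8.55 on drug and 8.71 off treatment, and its libraries spanned 8.39 to 8.99 and 7.10 to 9.64. Of its 15 genes Myh1, a fast myosin, fell by 2.13 ± 0.67 (adjusted p = 0.019), Myh7 (4.40, named for the count) rose, and Myh4 was not called (1.60 ± 0.74, adjusted p = 0.10). Of 4 mammary gland genes 3 rose, Krt18 (4.07), Krt8 (2.80) and Elf5 (2.39), and Prlr fell (-1.36). Gm42418, which overlaps ribosomal RNA sequence and was named after its value was seen, lay at 122, 159 and 263 CPM on drug and at 539, 888 and 1361 CPM off treatment. Clock, of the circadian clock, fell by 0.48 ± 0.07, one of 4 of 15 clock genes that did so, with Arntl (-0.42), Npas2 (-1.06) and Nr1d1 (-0.61), while Cry1 (0.76) rose. Over all genes 16.6% fell and 19.4% rose. With the muscle mean as a covariate 6180 genes were called, and the part of body site, gland tissue or ribosomal RNA in the other results was not tested.

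The difference between untreated AA and healthy skin, measured in the other 12 libraries, gives a reference that shares no library with this comparison. In AA 408 genes (2.51% of those tested) were higher and 157 (0.966%) lower than in healthy skin at the thresholds of the study. Of the 408, 394 (96.6%) were called higher off treatment than on drug at an adjusted p below 0.05, and of the 157, 131 (83.4%) were called lower, and none was called the other way. At the thresholds of the study in both comparisons, 271 genes were shared upward (66.4% of the AA list and 84.4% of the off treatment list) and 39 downward (24.8% and 44.8%). Across all 16248 genes, which are not independent of one another, the 2 log2 fold changes correlated with r = 0.854. Off treatment and AA skin themselves differed in 222 genes (1.37%), 118 higher and 104 lower off treatment, a comparison that shares the off treatment libraries with the main one.

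**Figure D4:**
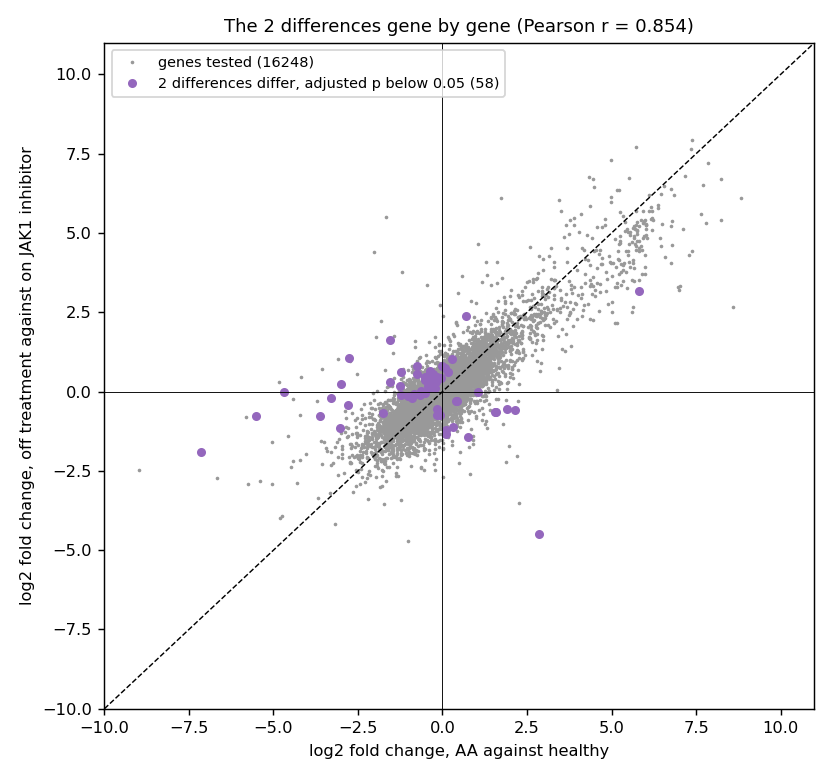
Log2 fold change of off treatment against on drug skin (y axis) over that of AA against healthy skin (x axis) for the 16248 genes tested, with the line of equal change dashed. Purple marks the 58 genes whose 2 differences differ at an adjusted p below 0.05, and most genes lie along the line (r = 0.854 over all 16248).

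The 2 differences themselves differed for 58 genes (0.357%), 42 of them more upward on withdrawal. This count was unstable: it ran from 23 to 210 when single libraries were left out and was 318 with DESeq2. Hoxc10 had the largest gap in the downward direction (-7.33 ± 1.73, adjusted p = 0.00049), from the few reads given above. Gm12185, of the immunity-related GTPase family, rose in both but by less on withdrawal (3.18 against 5.81, adjusted p = 0.028), and was at 8.32 to 21.9 CPM on drug. Wnt16, a Wnt ligand of the bulge, was 3.01 lower on the log2 scale in AA than in healthy skin and changed by 0.23 ± 0.24 off treatment (adjusted p = 4.6e-05 for the difference). The bulge keratin Krt24 showed the same contrast (-4.68 and -0.01, adjusted p = 0.00027), as did Tgm7 (-5.52 and -0.78) and Ifitm6 (-3.61 and -0.78). Krt24 lay at 1.198, 4.38 and 6.84 CPM on drug and at 2.70, 4.49 and 5.61 CPM off treatment, so the groups overlapped. Gm25395, a small RNA gene, and Phf2, a histone demethylase, were higher off treatment (0.81 and 0.30) and lower in AA (-0.76 and -0.18). In the other direction Cntn1, a neural adhesion protein, fell by 1.32 ± 0.18 off treatment and differed by 0.12 in AA, Mmp3, a stromelysin, fell by 1.42 ± 0.28 off treatment but was 0.76 higher in AA, Rptn, an epidermal matrix protein, was at -0.58 and 2.14, and Tmem251 at -0.30 and 0.43.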

How the data were processed

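Total RNA of mouse skin was made into stranded libraries with ribosomal RNA removed (TruSeq, RiboGold) and without fragmentation, by the methods of the study. Both choices were made there because the RNA had low integrity values. The part of RNA quality in the differences was not tested. The authors deposited counts per gene and TPM per gene. The submitters' processing notes name bcl2fastq, HISAT2 2.0.1 and featureCounts 1.4.4, the build is GRCm38, and the tool behind the TPM is not given in the sources used here. Of the columns of each table, 6 that match no sample were left out. Of 39017 gene IDs, 37693 were given a symbol (GENCODE M21). Members and gene lists (46) were chosen with earlier results of these data known.

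The deposited counts were filtered with filterByExpr (minimum count 10, 16248 genes kept), scaled with TMM and fitted over the 24 libraries of the 4 groups with glmQLFit and glmQLFTest of edgeR 4.0.16 (limma 3.58.1, R 4.3.3), with Benjamini-Hochberg adjustment over all genes tested. Log2 CPM, used for list means, principal components and ALADIN scores, carry a prior count of 2. Log2 fold changes of the fit do not, and were left at the default of edgeR. CPM are counts scaled to the effective library size. An adjusted p in the text comes from this fit unless another is named. Genes named were the 12 largest rises and the 12 largest falls without overlap at the thresholds of the study and with a mean log2 CPM of at least 1, in each list the 2 with the smallest adjusted p and the 2 most abundant, the genes the study names, and the 6 in each direction with the smallest adjusted p in the difference of differences. Some genes so chosen are not reported here. Others are said to be named afterwards or for a count. Promoter sequences are from RefSeq (GRCm38.p6).

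Alternatives were other scalings (RLE and upper quartile), filters, the replicate letter as a block, only the 12 libraries compared, DESeq2 1.42.0, limma-voom, the deposited TPM with pseudocounts of 0.1 and 1, the muscle mean as a covariate and each library left out. Settings that centre TPM on the median of each library were added after the data were seen. On simulated counts for off treatment against on drug over 16248 genes, 76.5% of 68 genes changed 2-fold, 95.5% of 66 changed 4-fold and 98.5% of 66 changed 8-fold were called. Of 184 calls 2.17% were of unchanged genes, and 11 unchanged genes were called in the difference of differences. The simulated libraries were independent, had few changed genes and no split like that of off treatment A and E, so these rates need not hold for the data. No pair of libraries within a group agreed within sampling noise (lowest chi-square per degree of freedom 3.23 over 60 pairs). Counting intervals are exact 95% intervals and cover counting error only.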

Additional observations from a re-analysis of the deposited data

Results flagged for a closer look

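In 542 groups of 6 libraries, over the named genes and the lists, the highest or lowest library was looked at for a gap to the nearest of the others above the 95% critical value of Dixon, as a share of the range of the group. Such a gap was found in 62 groups (11.4%), where chance gives about 1 in 20 (5%). The values are CPM for genes and mean log2 CPM for lists, each set against the nearest of the other 5 libraries. On drug library A stood highest in 32 of the 62, most of them genes of interferon, antigen presentation and leukocytes. Its interferon genes and chemokines were Parp14 at 130 (against 86.4), Irf1 at 104 (52.2), Iigp1 at 164 (60.9), Ifng at 1.65 (0.552), Cxcl9 at 39.8 (13.5), Cxcl10 at 9.88 (4.86), Cxcl11 at 5.54 (3.68), Ccl8 at 54.5 (7.91) and Ccr2 at 28.9 (7.91). Its genes of antigen presentation were H2-K1 at 741 (573), H2-T22 at 153 (120), H2-D1 at 264 (190), B2m at 1281 (923), H2-Aa at 332 (189) and Ctss at 108 (50.8), and its mean of the class I list was 6.55 (6.08). Among T cell and checkpoint genes it stood apart in Gzma at 0.599 (0.180), Lck at 6.89 (3.55), Cd4 at 11.1 (3.60), Stat4 at 1.95 (0.899), Cd274 at 31.3 (22.03), Pdcd1 at 1.80 (0.360) and Pdcd1lg2 at 3.44 (1.32). Macrophage and plasma cell genes followed, with Fcgr1 at 2.55 (0.993), Fcgr4 at 1.95 (0.545), Lyz2 at 327 (159), Igkc at 96.3 (39.2), Igha at 180 (74.0) and Jchain at 82.8 (29.3). Outside the immune genes it was highest in Lep at 105 (57.4), Mmrn1 at 33.7 (26.6) and Rptn at 109 (50.5), and lowest in the mean of the Schwann cell list at 3.43 (3.81).

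Off treatment library D stood highest in 9 groups, which hold gland, fat and bulge genes: Scd3 at 67.5 (against 12.7), Serpina3j at 43.4 (17.6), Serpina3b at 88.6 (27.02), Hamp2 at 1.62 (0.442), Wfdc3 at 3.42 (0.965), Gm17552 at 9.004 (3.16), Pparg at 19.3 (11.4), Plin4 at 197 (152) and Krt15 at 775 (446). The remaining off treatment gaps were those of BC100530 in library E at 111 (41.8), Icos in A at 1.62 (3.47), Phf2 in B at 76.5 (69.7) and Jak2, Stat6 and Cry1 in F at 163 (122), 138 (124) and 29.5 (20.3). On drug library B was high in Krt32 at 4.97 (4.14), Myh7 at 3.49 (0) and the skeletal muscle mean at 8.99 (8.57), and low in Mitf at 72.1 (81.6). On drug library F was high in Krt5 at 2349 (1873), Gm42418 at 263 (174), Slc4a1 at 2.48 (0.898) and Shh at 0.165 (0), which is its 1 read, and low in Clock at 114 (125). The other on drug gaps were those of Socs3 and Jun in D at 27.7 (17.6) and 121 (85.5), Hoxa7 in E at 32.9 (25.97), Ctsw in E at 5.56 (7.64) and the mean of the epidermal gamma-delta T cell list in C at 2.93 (2.67).

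For 13 named genes the change from on drug to off treatment skin differed from that between healthy and AA skin, by the test of the difference itself in edgeR. On the log2 scale the gap was -7.33 for Hoxc10, -2.64 for Gm12185, -2.71 for Rptn, -2.18 for Mmp3, -1.44 for Cntn1 and -0.73 for Tmem251. In the other direction it was 4.74 for Tgm7, 4.67 for Krt24, 3.25 for Wnt16, 2.83 for Ifitm6, 1.68 for Gm42418, 1.58 for Gm25395 and 0.48 for Phf2.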

How the results depend on the processing

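The counts to be compared are 5841 genes called, 408 past the thresholds of the study, 58 with differing differences and 525 of the AA list called in the same direction. Under each alternative but the TPM as deposited, 38 to 46 of the 46 lists had a count of calls within 1.5 times its value. The list median moved by less than the pooled SD of the list mean in 28 (centred TPM, pseudocount of 1) to 46 of the lists. Between 183 and 222 of the named genes kept their call and sign. The TPM as deposited gave 14142, 752, 5154 and 229 with a pseudocount of 0.1 (57 of 223 named genes then changed sign), 14181, 242, 6421 and 178 with 1, and 18597, 827, 409 and 147 with no filter. Centred TPM gave 207 past the thresholds and 345 in the same direction. Only the 12 libraries compared gave 264 past the thresholds. With the replicate letter as a block the counts were 5507, 337, 38 and 495, and 153 past the thresholds with the block in 12 libraries, but only 1 of 6 same-letter pairs deviated together (r from -0.22 to 0.38). The 58 became 106 with the upper quartile, 32 with no filter, 318 with DESeq2, 401 with limma-voom and 130 with the muscle covariate. Leaving out single libraries gave 5065 (without off treatment B) to 6164, 284 (without off treatment F) to 452, 23 (without AA B) to 210 (without AA D) and 434 to 586. The 58 moved by more than 1.5 times without AA E (26), healthy B, C, D, E and F (152, 38, 33, 26 and 109), on drug A, C and D (32, 24 and 36) and off treatment A, B, C, D and F (32, 102, 25, 36 and 92). With a prior count of 0.5 the off treatment CTL score was 4.09. The causes were not tested.

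Signs turned mostly in genes near 0. Krt24 was 0.039 with the block, 0.053 with the block in 12 libraries, 0.0036 with DESeq2, 0.086 with limma-voom, 0.19 with centred TPM, with or without a filter, and 0.46 with a pseudocount of 1. Bmp4 was 0.0042 with RLE, 0.0054 with the block, 0.0060 with the block in 12 libraries, 0.0082 in those alone, 0.012 with DESeq2, 0.085 with limma-voom and 0.14 without off treatment A and E. Centred TPM put Cxcr2 at -0.023 and Gzmm at 0.0043, again with or without a filter. With a pseudocount of 1 B2m was at -0.069, H2-Aa -0.082, Tgm7 0.23, Tmem251 0.12, Bmp2 0.11, Cxcr2 -0.046, Fgf10 0.069, Gzmm 0.44, H2-Oa 0.061 and Il7 0.085. Leaving out single libraries turned the sign of 7 genes, within ranges of -0.20 to 0.16 for Krt24, -0.059 to 0.083 for Bmp4, -0.64 to 0.054 for Lyz2 (highest without on drug A), -0.25 to 0.020 for Gzmm (highest without on drug E), -0.043 (without off treatment B) to 0.43 for H2-Aa, -0.28 to 0.047 for Krt10 and -0.19 to 0.079 for Il12rb2 (both highest without off treatment F). Without off treatment A and E Wnt16 was at -0.091 and Bmp2 at 0.029. Depth limits the rare transcripts of T cells and hair on drug, where single reads decide a value.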

Other observations

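Other gene groups held some called genes, and their counts are to be read against the 19.4% of all genes that were higher and the 16.6% that were lower. The genes named here were chosen after their values were seen, for the counts they belong to. Of 10 genes of the cytokines that signal through the common gamma chain and JAK1 with JAK3, 5 rose off treatment and 1 fell (median 0.65). Il21r, the receptor of interleukin 21, lay at 0.273, 0.788 and 3.29 CPM on drug and at 3.10, 3.91 and 12.5 CPM off treatment, a 5.30-fold rise (adjusted p = 0.00074). Il4ra, shared by the receptors of interleukins 4 and 13, rose 2.71-fold with no overlap (adjusted p = 0.00021), the common chain Il2rg rose 2.08-fold (adjusted p = 0.0058), and Il2rb and Il2ra are given above. Il7, which sustains T cells, fell by 0.59 ± 0.22 (adjusted p = 0.044), a call lost without off treatment libraries A and E (adjusted p = 0.12). Of 11 genes of tissue residency and homing of T cells 5 rose and 1 fell, with a median of 0.80.

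Of 13 genes of dendritic cells 3 were higher and 2 lower (median -0.07), shares near those of all genes. Cd207, the langerin of Langerhans cells, lay at 22.2, 26.2 and 32.2 CPM on drug and at 7.53, 11.3 and 19.4 CPM off treatment, a fall by 1.16 ± 0.21 without overlap (adjusted p = 0.00016). Cd209a, a lectin of dermal dendritic cells, fell by 1.41 ± 0.40 (adjusted p = 0.0064), whereas the integrin chain Itgax rose 2.39-fold (adjusted p = 0.0077), Batf3, needed for cross-presenting dendritic cells, 2.30-fold (adjusted p = 0.018) and the adhesion molecule Epcam, also made by epithelium, 1.67-fold. Of 5 genes of epidermal gamma-delta T cells only Cd3g was called (1.58-fold, adjusted p = 0.035), near the share of all genes, and none was without off treatment libraries A and E. Of 15 complement genes, below the shares of all genes, 2 rose, C3 (1.79-fold, adjusted p = 0.043) and C4b (2.06-fold, adjusted p = 0.016), and 2 fell, the fat cell protease Cfd (by 1.43 ± 0.36, adjusted p = 0.0035) and the inhibitor Cd55 (by 0.87 ± 0.16, adjusted p = 0.00022), the last with 44.2 to 82.5 CPM off treatment and 105.04 to 134 CPM on drug. The call of C3 was lost with the upper quartile, with no filter, with the replicate block (adjusted p = 0.10) and without any one of on drug B, C, E or F or off treatment B, C or F (highest adjusted p = 0.12).

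Of 5 red blood cell genes Hba-a1 (by 1.69 ± 0.60) and Hbb-bs (by 1.66 ± 0.45) fell and Slc4a1 rose (2.499 on the log2 scale), and the call of Hba-a1 was lost without off treatment A and E (adjusted p = 0.052). Hbb-bs lay at 26.2, 31.8 and 46.4 CPM on drug and at 5.04, 11.3 and 16.2 CPM off treatment (adjusted p = 0.0066). Of 12 immediate early genes, which answer stress and handling of tissue, Jun (0.54) and Egr2 (0.66) rose and Atf3 (-1.11) and Btg2 (-0.40) fell, near the shares of all genes, both falls being lost without A and E. Of 14 anterior Hox genes 2 rose and 5 fell (median -0.40), and of 9 basal and suprabasal keratins 2 rose and 1 fell (median 0.41), whereas without A and E 1 rose and 2 fell (median -0.03).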
